A study of Mus musculus with 4 samples.

Results

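Urokinase (Plau), tissue plasminogen activator (Plat), the urokinase receptor (Plaur) and protease nexin-1 (Serpine2) were examined in 2 groups of mouse fibroblasts, one with wild-type EGFR and one with deletion-mutant EGFR. The members were the non-control probes whose gene name on the array was one of these 4, and they came to 4 probes, 1 per gene, of 55681 non-control probes in all. The cells were NIH3T3, an immortalised line of mouse embryonic fibroblasts, and both groups expressed a form of EGFR, the receptor tyrosine kinase for epidermal growth factor. The labels give no extent of the deletion, no species or promoter of the receptor, and no number of clones, and cells without such a receptor are not among the samples. Each group had 2 arrays of cells at steady state, and the RNA was labelled with Cy3 and hybridised to 1-colour Agilent arrays. The labels speak of separate cDNA preparations and not of separate cultures, so the p-values measure the spread between arrays, which may be technical.

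Urokinase and tissue plasminogen activator are secreted serine proteases that cut plasminogen into plasmin, a broad protease that dissolves fibrin and attacks matrix proteins. Urokinase acts at the cell surface, where it binds its receptor, a protein of the Ly6/uPAR fold that is held in the membrane by a lipid (GPI) anchor. Inhibitors of the serpin family trap the activators. Protease nexin-1 is a serpin that inhibits thrombin, urokinase and tissue plasminogen activator, and fibroblasts are a classical source of it.

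The probes are shown because each value below rests on a single one of them. Positions are on mm9, sequences are given 5′ to 3′, and for Plau and Plaur the first 30 of the 60 bases are printed.
Plau (chr14:21662242-21662301, plus strand): gtgtatttctgtatctaactgcaagtctag
Plat (chr8:23892531-23892590, plus strand): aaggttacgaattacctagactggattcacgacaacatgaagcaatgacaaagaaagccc
Plaur (chr7:25260569-25260628, plus strand): ccctcgtgttgtcttctttggacctcagtt
Serpine2 (chr1:79793476-79796093, minus strand): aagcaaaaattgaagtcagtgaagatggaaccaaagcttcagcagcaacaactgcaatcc
The position of the Serpine2 probe covers 2618 bases of the genome for 60 bases of probe, so this probe crosses a splice junction. The other 3 probes lie on unbroken stretches, and their place in exons or untranslated regions was not analysed here. The accessions behind the probes (NM_008873, NM_008872, NM_011113 and NM_009255) carry the same 4 symbols in the RefSeq gene list. The probes of the paralogous proteases Plau and Plat share no run of bases longer than 10 with any other member's probe, and G and C made up 41.7% to 43.3% of each of the 4 probes.

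All 4 members were well above background on all 4 arrays, and no spot was saturated. Across the arrays 42.9% to 46.9% of probes were well above background, and the 75th percentile of the signal, which served to scale each array, lay between 327 and 366.6 intensity units. All 8 fibroblast markers examined, such as Col1a1, Vim and Pdgfrb, were well above background on every array. Of the markers of other cell types, 0 of 6 epithelial, 2 of 5 endothelial and 3 of 6 leukocyte genes were so. The endothelial ones were Kdr and Pecam1, and the leukocyte ones Itgam, Csf1r and Cd68. Well above background on no array were 4 epithelial, 3 endothelial and 3 leukocyte genes, among them Cdh1, Epcam, Cdh5 and Ptprc. The summed scaled signal of the epithelial markers was 0.177 and 0.249 in wild-type and 0.483 and 0.498 in deletion-mutant arrays. The epithelial marker Krt8 was well above background on the 2 deletion-mutant arrays only, and it was tested through them. It passed as higher (fitted log2 2.05, limma adjusted p = 0.00961). The wild-type values (-3.60 and -4.60) were not well above background, so the size of this rise was not measured. The endothelial sums were 6.56 and 7.13 against 6.58 and 6.73, where Pecam1 passed as lower (-0.40, adjusted p = 0.0111). The summed leukocyte markers were at 36.0 and 38.0 against 21.1 on both, where Itgam was the 1 leukocyte marker that fell. The summed fibroblast markers were at 1592 and 1636 in wild-type and 1177 and 1216 in deletion-mutant arrays, with 6 of the 8 lower, such as Col1a1 (-1.24, log2) and Pdgfrb (-1.08), and Vim higher (0.23). The part of these shifts in the results was not tested. In such bulk RNA, fewer cells that express a gene and less RNA per cell cannot be told apart. All arrays shared 1 slide. Each of its columns held a single group, so column and group cannot be told apart, while each of its rows held 1 array of either group.

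The receptor rose and the serpin fell in deletion-mutant cells, whereas neither activator passed the test. Plaur was 7.02-fold higher and Serpine2 9.80-fold lower, Plat was 1.19-fold higher without passing, and Plau differed by 1.04-fold. Thus 2 of the 4 members passed an adjusted p of 0.05 by limma, where 58.8% of the 18093 features tested did (34.6% higher, 24.2% lower). The same 2 changed at least 2-fold, where 13.4% of features did (5.94% higher, 7.46% lower). A share of members near the background of called features is not a result about the members.

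**Figure D1:**
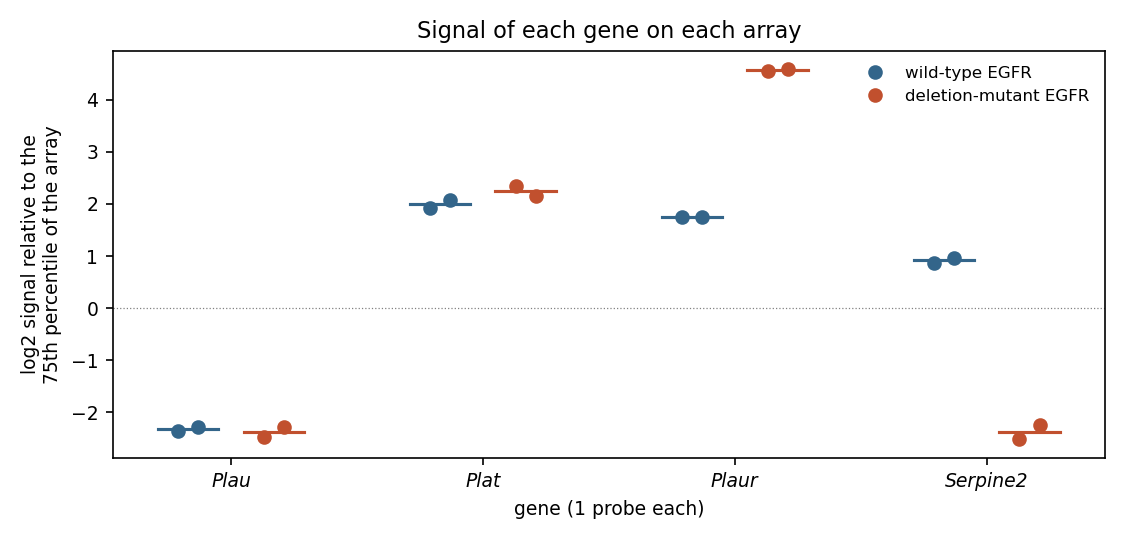
The signal of the 4 members on each array, as log2 relative to the array's 75th percentile (vertical axis), with 1 point per array and a bar at the mean of the 2 arrays of a group. Plaur moved from 1.76 to 4.57 and Serpine2 from 0.92 to -2.37, while the Plau arrays overlap between groups. Levels of different probes are not comparable with each other.

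Plaur gives the cell its binding site for urokinase and, through integrins and other membrane partners, takes part in adhesion and signalling. Its processed signal was 1163 and 1239 intensity units in the wild-type arrays and 7672 and 8427 in the deletion-mutant arrays. Relative to the 75th percentile this was 1.75 and 1.76 (log2) against 4.55 and 4.58. The deletion-mutant arrays were both far above the wild-type arrays, and the arrays of a group differed by only 0.0017 and 0.029 (log2). The log2 fold change was 2.81 ± 0.055 (SE, 2 arrays a group, limma adjusted p = 0.000146), with a 95% confidence interval from 2.66 to 2.96. It was 2.80 in the first slide row and 2.82 in the second. By fitted fold change it was the rise of rank 91 among all features. Under the other scalings and background corrections the log2 fold change lay between 2.62 and 2.99, and Plaur passed in each of them.

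Serpine2 was read at 631.7 and 714.3 intensity units in the wild-type arrays and at 57.2 and 74.8 in the deletion-mutant arrays. On the scaled log2 axis the wild-type values were 0.87 and 0.96 and the deletion-mutant values -2.51 and -2.23. The groups were far apart, and the low group was also the more variable one, with an SD of 0.198 (log2) against 0.062. The log2 fold change was -3.29 ± 0.115 (SE, n = 2 per group, limma adjusted p = 0.000319), with a 95% confidence interval from -3.61 to -2.98. In the slide rows it was -3.39 and -3.20, and its fall ranked 103 among all features. The deletion-mutant signals were 2.00 and 2.09 times the lowest signal that counted as well above background on their arrays, so the size of the fall depends on how background is treated. With normexp background correction, whose offset compresses dim signals, the fall was 4.58-fold (log2 -2.20) and still passed (adjusted p = 3.76e-08).

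Plau, the activator that binds Plaur, was dim in both groups. Its signals were 67.1 and 75.8 intensity units in wild-type and 58.9 and 72.5 in deletion-mutant arrays, which is 2.02 to 2.59 times the lowest signal well above background. The scaled values were -2.36 and -2.27 against -2.47 and -2.28 (log2), and the groups overlapped. The log2 fold change was -0.059 ± 0.091 (SE, limma adjusted p = 0.612), with a 95% confidence interval from -0.31 to 0.19. This interval limits the difference under the present scaling and does not show that the levels were equal. The scanner software's own error estimate for the spot was 13.6% to 15.3% of the signal for Plau.

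Plat, the activator that works mainly on fibrin, was bright in both groups, with 1299 and 1536 intensity units in wild-type and 1653 and 1565 in deletion-mutant arrays. Its scaled values were 1.91 and 2.07 against 2.34 and 2.15 (log2), so that the groups did not overlap. Groups of arrays did not overlap for 81.7% of all features. The log2 fold change was 0.25 ± 0.099 (SE, limma adjusted p = 0.0899), with a 95% confidence interval from -0.016 to 0.53. It was 0.42 in the first slide row and 0.086 in the second. The call depended on the scaling, the background correction and the variance estimate. Plat passed under median scaling at 0.43 (adjusted p = 0.0121), under spike-in scaling at 0.34 (adjusted p = 0.0414), with normexp at 0.26 (adjusted p = 0.0228) and with trended, robust variances at 0.25 (adjusted p = 0.00898), and it was 0.060 (adjusted p = 0.598) under the percentile of detected probes. Median scaling moved the median of all features by 0.18 (log2) and the percentile of detected probes moved it by -0.19, so shifts of the size of Plat's lie within the choice of scale.

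**Figure D2:**
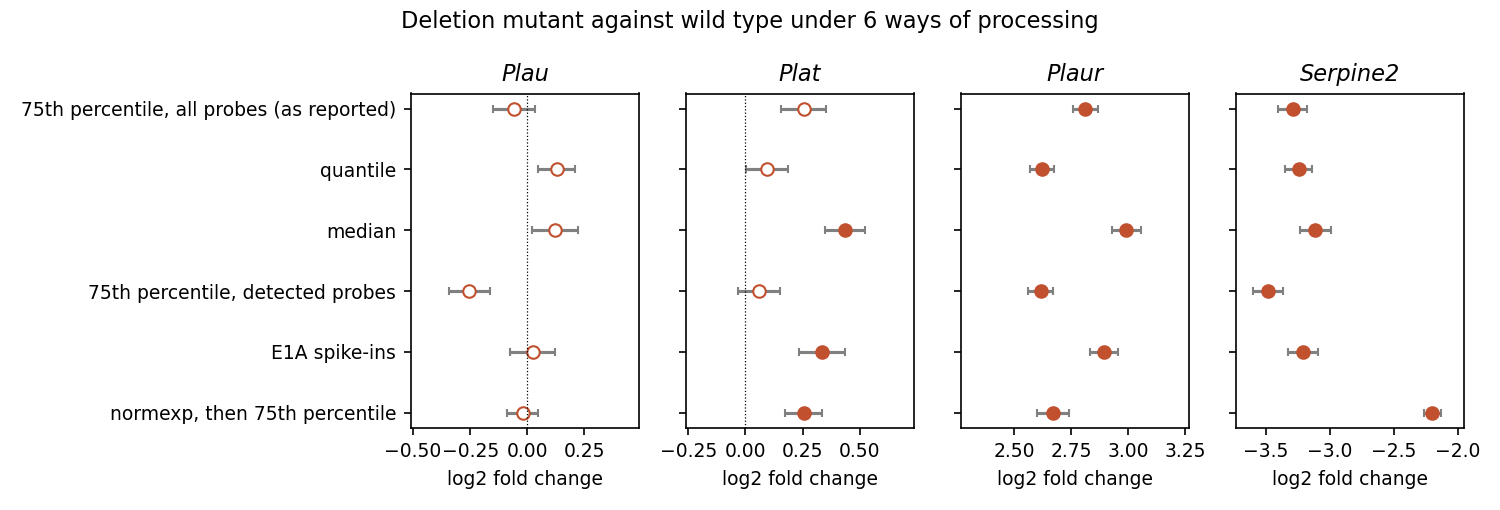
Log2 fold change of each member, deletion mutant against wild type (horizontal axes, 1 panel per gene with its own range), under 6 ways of processing (vertical axis), with bars of 1 SE from limma; filled points passed an adjusted p of 0.05. Plaur stayed between 2.62 and 2.99 and Serpine2 between -3.49 and -2.20, whereas Plat passed in some settings only and Plau lay on both sides of 0.

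Ratios of members on the same array are not altered by a constant that shifts a whole array, although quantile normalization and the background correction do alter them. The ratio of Plaur to Serpine2 was 6.10 higher (log2) in deletion-mutant than in wild-type arrays, or 68.8-fold (29.2-fold with normexp), with SDs of 0.061 (wild type) and 0.177 (deletion mutant) over 2 arrays each. The ratio of Plaur to its ligand Plau was 7.31-fold higher (log2 ratio of Plau to Plaur -2.87), or 6.46-fold with normexp and 5.62-fold under quantile normalization. The ratios of the activators to the inhibitor Serpine2 were 9.41-fold higher for Plau and 11.7-fold higher for Plat, or 4.52-fold and 5.47-fold with normexp. Between the activators themselves, the ratio of Plau to Plat was 1.24-fold lower (-0.31, log2, SDs 0.046 and 0.268), but its sign turned under quantile normalization (0.035). In all 6 pairs of members the groups did not overlap. Single features did not overlap in 81.7% of cases, and the share over other pairs of genes was not computed. Every pair but Plau to Plat holds Plaur or Serpine2, so these pairs are not separate observations. With 2 arrays per group an exact permutation test cannot go below p = 0.333, so the ratios are given without a test. The ratios show unequal change and not which member stayed level.

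**Figure D3:**
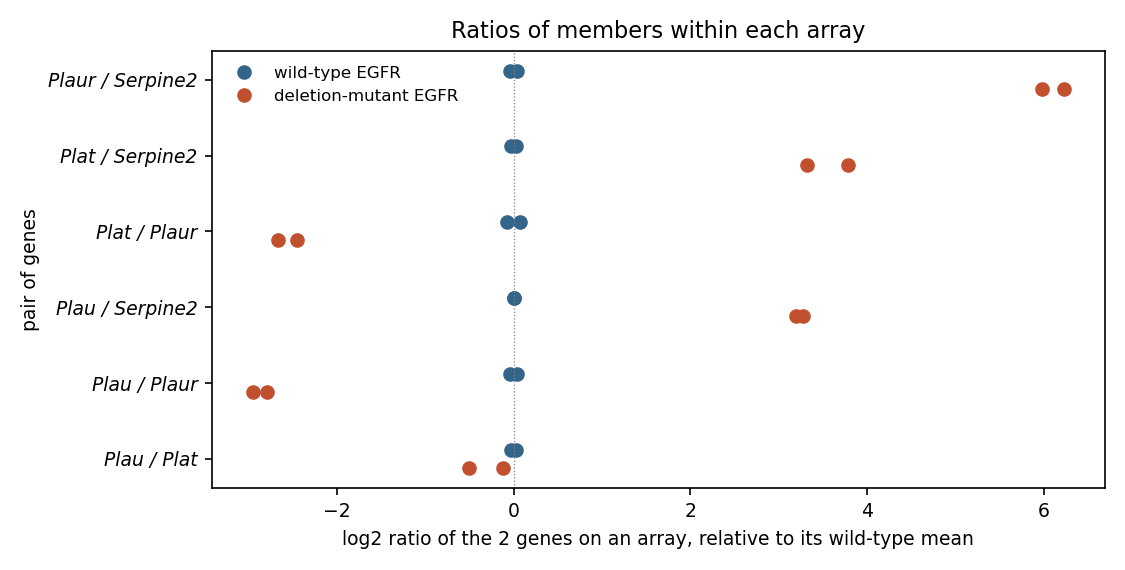
Log2 ratio of 2 members on the same array, relative to the wild-type mean of that ratio (horizontal axis), for the 6 pairs of members (vertical axis), with 1 point per array. The ratio of Plaur to Serpine2 moved furthest, by 6.10, and the ratio of Plau to Plat least, by -0.31.

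RefSeq's promoter table (GRCm38.p6) held entries for 2 of the 4 members, Plaur and Serpine2, which are also the members that passed. The 250 bases before the listed start are printed because they set the promoter of the member that rose beside that of the member that fell. Capitals mark the AP-1 motif TGANTCA and the GC box GGGCGG, searched on both strands.
Plaur (chr7:24462233-24462482, plus strand): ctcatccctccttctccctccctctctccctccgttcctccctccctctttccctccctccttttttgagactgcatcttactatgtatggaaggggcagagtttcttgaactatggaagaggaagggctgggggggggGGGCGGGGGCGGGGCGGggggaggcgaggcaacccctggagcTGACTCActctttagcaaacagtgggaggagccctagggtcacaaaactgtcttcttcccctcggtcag
Serpine2 (chr1:79858666-79858915, minus strand): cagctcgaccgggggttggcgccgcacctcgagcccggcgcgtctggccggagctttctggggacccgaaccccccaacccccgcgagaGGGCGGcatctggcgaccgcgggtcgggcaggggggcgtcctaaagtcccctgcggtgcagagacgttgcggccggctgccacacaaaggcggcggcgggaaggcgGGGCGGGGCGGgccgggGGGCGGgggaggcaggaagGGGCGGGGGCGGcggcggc
The Plaur window holds 1 AP-1 match, whose first base lies 69 bases before the start, and such a match occurs in 6.75% of the 32851 promoter windows of the same length. The Serpine2 window holds no match to these letters. GC boxes, some of them sharing a base, number 3 for Plaur and 6 for Serpine2, against at least 1 in 32.7% of all windows. A PEA3-type ETS motif, AGGAAG on either strand, occurs once in each window and in 29.5% of all windows. The TATA motif TATAAA, on either strand, has 0 matches in both windows and occurs in 12.4% of all windows. The 4 motifs were chosen after the expression values and these sequences had been seen. The AP-1 match is a description of the sequence and was not measured as binding.

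Plasminogen itself and most plasma inhibitors of the system were not well above background on both arrays of either group, so the list of plasminogen, its binding sites and its inhibitors came to 6 tested genes of the 15 on the array. Of these, 3 rose and 3 did not pass (50% passed, against 58.8% of all features), and the median log2 fold change was 0.35 against 0.066 over all features. The genes that rose were the neuronal inhibitor of tissue plasminogen activator Serpini1, which was at background in wild-type cells and at least 1.5-fold higher (1.32-fold with normexp), and 2 plasminogen-binding proteins, S100a10 (log2 0.52) and Eno1 (0.34). Eno1 did not pass under the percentile of detected probes (0.14, adjusted p = 0.107), without the first wild-type array (0.28, adjusted p = 0.0651) or without a background filter (adjusted p = 0.0954). The 3 that did not pass were Cpb2 (0.36), a carboxypeptidase that slows the lysis of fibrin, Anxa2 (0.031), the partner of S100a10 at the membrane, and the plasminogen receptor Plgrkt (-0.17). Serpini1 and Cpb2 were well above background on 0 and 1 of the wild-type arrays, so they were tested through the deletion-mutant arrays only. The list's median of 0.35 includes both. With only genes above background on all 4 arrays, 4 of the list were tested and 2 rose. Plgrkt passed as lower under quantile normalization (-0.37, adjusted p = 0.0154), the percentile of detected probes (-0.36, adjusted p = 0.0161), normexp (-0.21, adjusted p = 0.0307) and trended, robust variances (-0.17, adjusted p = 0.0269), and Cpb2 passed as higher without the second wild-type array (0.64, adjusted p = 0.0484).

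Partners of the receptor and the endocytic receptors that clear serpin complexes were tested for 18 of 23 genes. Of these, 7 rose, 6 fell and 5 did not pass. The share that passed was 72.2%, against 58.8% of all features, and the median log2 fold change was 0.11 against 0.066. Integrin chains stood on both sides. The leukocyte chain Itgb2 rose 3.20-fold (2.14-fold with normexp), and Itga3 (2.23-fold), Itgb3 (2.20-fold, the vitronectin receptor chain) and Itga5 (2.02-fold, the fibronectin receptor chain) rose as well. Itgb5 fell by 0.93 (log2) and Itgam, the partner of Itgb2, by 0.92 in its bright probe, but not with the mean of its probes (-0.65, adjusted p = 0.248). Among the receptors of the LDL receptor family, Lrp8 rose 3.04-fold and Vldlr 1.47-fold. Lrp1, which takes up urokinase bound to inhibitors, fell by 0.45 ± 0.058 (SE, log2, adjusted p = 0.00433), and its chaperone Lrpap1 fell by 0.75 in its brighter probe, while its other probe did not pass (-0.19, adjusted p = 0.0869). The syndecan Sdc1, a heparan sulphate proteoglycan, rose 1.52-fold, and the caveolar protein Cav1 fell by 1.26. The sorting receptor Sort1 fell by 0.50 in its brightest probe, and its other 2 probes were not well above background in deletion-mutant arrays, where they were at least 1.18-fold and 5.45-fold lower. Mrc2 did not pass by its brightest probe (-0.36, log2). Another of its probes passed as lower (-0.78, limma adjusted p = 0.0133), and the last was at 0.043.

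Thrombin is the other main target of Serpine2, and its own gene F2 was not tested because it was not well above background on both arrays of either group. Of 7 tested genes of the thrombin and coagulation list, 1 rose, 2 fell and 4 did not pass. The share that passed was 42.9%, against 58.8% of all features, and the median was -0.15 against 0.066. The protein C receptor Procr rose 2.41-fold, while tissue factor F3, which starts coagulation at the cell surface, fell by 1.32 (log2) and factor X, F10, fell by 0.68. Among substrates downstream of the activators and their receptors, 4 of 10 tested genes rose and 3 fell (70% passed, against 58.8% of all features, median 0.15). Tgfb1, whose latent form plasmin can activate, rose 3.58-fold. The neurotrophin Bdnf, whose precursor plasmin can process, rose 3.05-fold, and Hgf, whose precursor is cut by serine proteases, rose by 0.55 (log2). Mst1r, a receptor for the related ligand MSP, was at background in wild-type cells and at least 4.41-fold higher, although normexp gave 2.19-fold. The matrix metalloproteases Mmp2 and Mmp14 changed by -1.05 and -0.97 (log2), both lower in deletion-mutant cells, and fibronectin, Fn1, fell by 0.70 (log2).

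Plaur shares its protein fold with the Ly6/uPAR family, and its direction was not that of most tested relatives. Of 8 tested genes of 20, 5 fell, 1 rose and 2 did not pass (75% passed, median -0.85). Of all features, 58.8% passed in either direction and 24.2% passed as lower, and the median was 0.066. The complement regulator Cd59a fell 4.82-fold (log2 -2.27, or -1.66 with normexp), Ly6c1 3.73-fold, the stem cell antigen Ly6a 3.37-fold, Lynx1, a modulator of nicotinic receptors, 2.28-fold and Lypd2 1.43-fold. Lypd2 did not pass without the second wild-type array (-0.44, adjusted p = 0.0785) or without a background filter (adjusted p = 0.0838). Ly6e rose by 0.32 ± 0.066 (SE, log2, adjusted p = 0.0156) but not under quantile normalization (0.074, adjusted p = 0.379), the percentile of detected probes (0.13, adjusted p = 0.153) or no background filter (adjusted p = 0.103), nor without the first wild-type (0.30), the second wild-type (0.35) or the second deletion-mutant array (0.27). Over all 5 lists, 16 of 49 tested genes rose and 16 fell, which is 65.3% called, against 58.8% of all features. The lists describe the surroundings of the members and were not tested as sets.

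**Figure D4:**
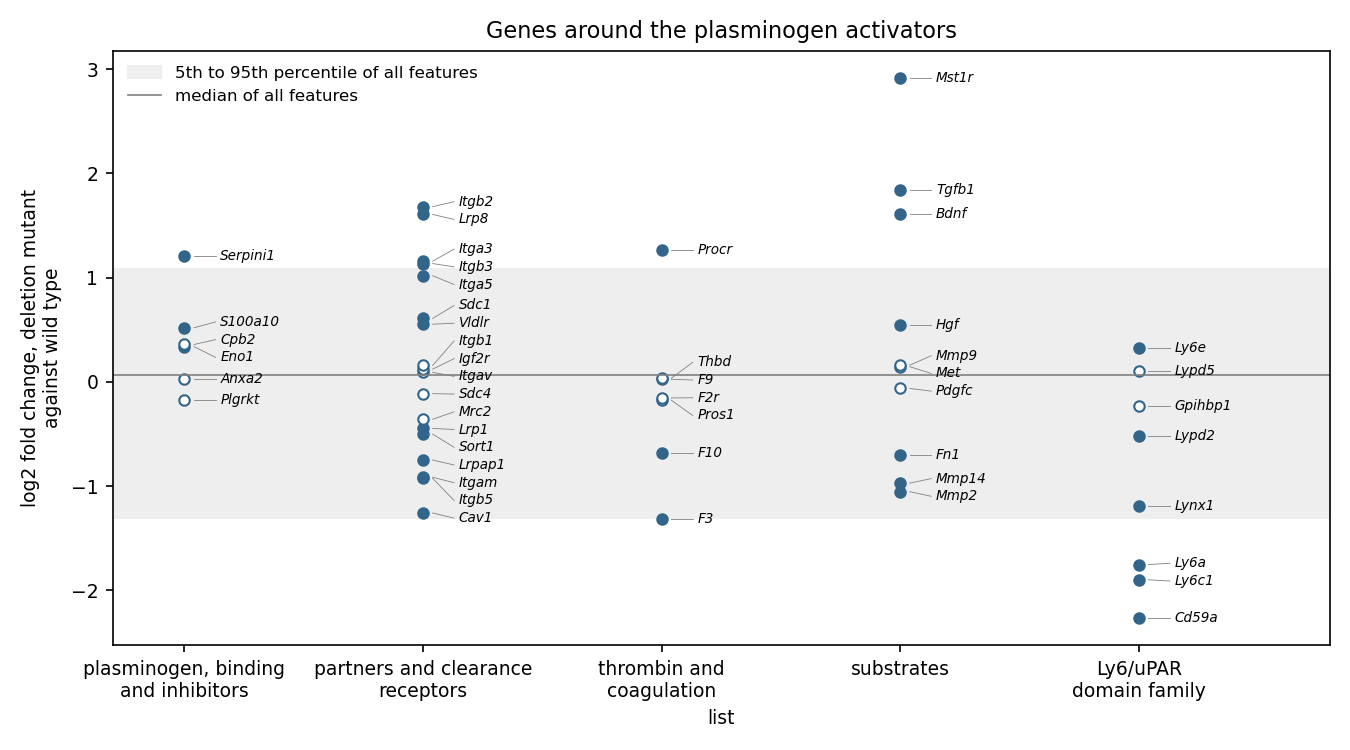
Log2 fold change of every tested gene of the 5 lists (vertical axis, deletion mutant against wild type) by list (horizontal axis), filled where limma's adjusted p was under 0.05. The grey band spans the 5th to 95th percentile of all features (-1.30 to 1.09). Mst1r and Serpini1 are drawn at their fitted values, although only bounds of at least 4.41-fold and 1.5-fold were measured on the processed signal, and 4 of the Ly6/uPAR genes lie at -1.19 or below.

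Genes most like each member over the 4 arrays were sought among 12554 other named genes above background on every array, by the Euclidean distance between values centred on the gene's own mean. Nearest to Plaur were the chemokine Ccl2 (distance 0.025 on the log2 scale, log2 fold change 2.79), the peptide hormone Cck (0.078, 2.76) and the cytokine Il11 (0.094, 2.80). Nearest to Serpine2 were Ppp1r3d, a glycogen-targeting phosphatase subunit (0.050, -3.27), the transcription factor Atoh8 (0.052, -3.26) and Pdgfrl (0.105, -3.21). With normexp the log2 fold changes of Cck, Il11, Ppp1r3d and Atoh8 were 2.14, 2.42, -2.67 and -2.03. Plau lay nearest to Pcsk7 (0.027), Tpgs1 (0.030) and Hgsnat (0.030), and Plat to Ccnk, Mapk1ip1l and Atp5j2 (each 0.031). None of these last 6 passed the test under the present scaling. Ccnk, Mapk1ip1l and Atp5j2 passed under median scaling (limma adjusted p = 0.00938, 0.0150 and 0.00864). They also passed with normexp, spike-in scaling, the authors' values and trended, robust variances. Atp5j2 passed as well when only features above background on all 4 arrays were kept (limma adjusted p = 0.0443). Hgsnat passed under the percentile of detected probes (adjusted p = 0.0493). With 4 arrays in 2 groups the likeness reflects mainly the size of the group difference.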

How the data were processed

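Per the file headers, the arrays were read with Agilent Feature Extraction 10.10.1.1 under protocol GE1_1010_Sep10 with probe positions on mm9. The deposited spot values are intensity on a linear scale, background-subtracted and detrended within the array, beside raw mean and background intensity and flags of 0 or 1. The authors also deposited log2 values, and these differed from the log2 processed signal by a constant for each array (within 0.01 for 100% of probes).

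Control spots and outlier spots were left out, log2 signals were averaged per probe, and each array's 75th percentile was subtracted. A probe was kept where the arrays of either group all showed it well above background (25162 probes), and a gene was represented by its brightest kept probe, which gave 18093 features. Groups were compared with limma 3.58.1 (lmFit, eBayes) in R 4.3.3, with 2 residual and 2.18 prior degrees of freedom and Benjamini-Hochberg adjustment over all features. The procedure was tested on simulated data. Figures were drawn with matplotlib 3.10.9. Alternatives were normexp with an offset of 50, quantile, median, detected-percentile and spike-in scaling, the authors' values, other filters, variance and probe rules, a replicate block and leaving out each array.

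Members and lists were chosen with earlier results of these data known. Named besides the members were the list genes that passed, Mrc2 for its disagreeing probes, all tested genes of the plasminogen list, and the 3 genes nearest each member. Some genes that the lists first held are not reported here and were left out of the list counts. Precision is limited by the number of arrays.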

Additional observations from a re-analysis of the deposited data

How the results depend on the processing

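Plaur and Serpine2 kept their direction and passed in all 16 alternatives each (log2 2.62 to 2.99 and -3.49 to -2.20). Without each array in turn, the ranges were 2.80 to 2.83 for Plaur, -3.43 to -3.15 for Serpine2, -0.16 to 0.039 for Plau and 0.16 to 0.35 for Plat. Plau, which never passed, was above 0 under quantile normalization (0.13), median scaling (0.12), spike-in scaling (0.023) and the authors' values (0.12). Plat passed with normexp (0.26), median scaling (0.43), spike-in scaling (0.34), the authors' values (0.44) and trended variances (0.25), and the cause was not tested beyond the shift that a scaling gives every gene. The ratio of Plau to Plat turned sign under quantile normalization (0.035), an alternative applied to ratios after seeing the data. Each member had 1 probe, so fits with every probe as a feature, or with the mean of a gene's probes, could only give the members the same fold changes. Sign changes among genes that did not pass were those of Pcsk7 (0.11 under median scaling and the authors' values, 0.0096 under spike-ins), Tpgs1 (0.098, 0.099 and 0.00075), Hgsnat (0.11 and 0.016), Anxa2 (-0.16 under the percentile of detected probes) and Plgrkt (0.010 and 0.011 under median scaling and the authors' values). Without each array in turn these ranged from -0.18 to 0.034 (Pcsk7), -0.17 to 0.012 (Tpgs1), -0.14 to 0.011 (Hgsnat) and -0.017 to 0.078 (Anxa2). Called features numbered 10631, or 6466 (3741 higher, 2725 lower) without a background filter, which tests more dim features, and 6727 rather than 4371 were lower under the percentile of detected probes. The share of higher calls was 58.9%, against 73.5% under median scaling, 51.1% under quantile normalization and 38.9% under the percentile of detected probes. With the replicate number, which is also the slide row, as a block, 9990 features passed, Plaur (adjusted p = 0.00377) and Serpine2 (0.00381) among them. Same-numbered arrays share only a number (correlation of deviations 0.047). All arrays lay on 1 slide, so slide could not be a block.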
